A study of Mus musculus with 2 samples.

Results

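A set of 9 genes that make, move or use phosphate and pyrophosphate at sites of bone mineralization were followed by cell type in sorted metaphyseal cells of the mouse femur: Alpl, Phospho1, Smpd3, Enpp1, Ank, Slc20a1, Slc20a2, Phex and Fam20c. They were found by gene symbol, as 9 of the 27998 genes of the deposited matrices, and all 9 had at least 1 transcript in a kept cell. Cells came from Gli1-CreERT2; Ai9 mice of mixed background at 1 month of age. Tamoxifen was given once daily for 3 days, so that cells in which the Gli1 promoter was active, and their progeny, carried tdTomato, and was followed by 3 daily injections of vehicle or of teriparatide at 400 ng/g body weight, a parathyroid hormone fragment. The cells sorted were tdTomato+CD31-CD45-Ter119- cells of the cancellous bone, sequenced as 1 10x Genomics 3′ library per condition. Per the study's methods each group held 5 mice, 3 males and 2 females, and whether the cells of the mice were pooled was not stated in the sources used here. With 1 library per condition there is no replicate, so no p-value is given, and every interval below is a 95% interval that covers counting error alone. The sort limits the results to cells of the Gli1 lineage, and other cells of bone enter only where they escaped it.

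Mineral forms when inorganic phosphate joins calcium, and inorganic pyrophosphate stops its growth. Tissue-nonspecific alkaline phosphatase, the product of Alpl, splits pyrophosphate into phosphate, and the phosphatase PHOSPHO1 frees phosphate from phosphocholine and phosphoethanolamine inside matrix vesicles, using substrates to which the neutral sphingomyelinase encoded by Smpd3 contributes. Against them act ENPP1, which makes pyrophosphate from nucleotides, and ANK, a membrane protein needed for the release of pyrophosphate and ATP, while the sodium-phosphate cotransporters of Slc20a1 and Slc20a2 take phosphate into cells, the endopeptidase PHEX restrains the phosphate hormone FGF23, and the secretory kinase FAM20C phosphorylates matrix proteins.

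In the GRCm38 annotation the genes lie on 8 chromosomes. Alpl (ENSMUSG00000028766) spans 137741733 to 137796384 of chromosome 4, Phospho1 (ENSMUSG00000050860) 95824499 to 95832140 of chromosome 11, and Smpd3 (ENSMUSG00000031906) 106252548 to 106337988 of chromosome 8. Enpp1 (ENSMUSG00000037370) spans 24637914 to 24712159 of chromosome 10 and Ank (ENSMUSG00000022265) 27466677 to 27594909 of chromosome 15. Slc20a1 (ENSMUSG00000027397) spans 129198764 to 129211616 of chromosome 2 and Slc20a2 (ENSMUSG00000037656) 22476788 to 22569612 of chromosome 8. Phex (ENSMUSG00000057457) spans 157162075 to 157415312 of chromosome X and Fam20c (ENSMUSG00000025854) 138754514 to 138810077 of chromosome 5.

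RefSeq promoters (GRCm38.p6) were found for 7 of the 9 genes. The 250 bases before the start are printed for 4 of them, since Alpl and the group of Ank, Enpp1 and Phex marked different cell types below. Capitals mark matches to TGTGGT, a core that RUNX factors read, or to GGGCGG, the GC box of SP factors, each searched with its reverse complement (ACCACA and CCGCCC).
Alpl, chr4:137796385-137796634, minus strand: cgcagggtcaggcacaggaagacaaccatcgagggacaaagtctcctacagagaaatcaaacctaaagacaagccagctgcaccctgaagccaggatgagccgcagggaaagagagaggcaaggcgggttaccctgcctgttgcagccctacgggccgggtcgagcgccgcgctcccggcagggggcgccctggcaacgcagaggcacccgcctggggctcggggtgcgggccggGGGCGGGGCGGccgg
Enpp1, chr10:24712160-24712409, minus strand: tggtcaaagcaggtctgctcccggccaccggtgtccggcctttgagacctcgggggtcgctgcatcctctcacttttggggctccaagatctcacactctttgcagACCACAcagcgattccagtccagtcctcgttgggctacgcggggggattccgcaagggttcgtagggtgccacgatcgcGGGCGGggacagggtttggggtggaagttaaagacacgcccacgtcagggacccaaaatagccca
Ank, chr15:27466427-27466676, plus strand: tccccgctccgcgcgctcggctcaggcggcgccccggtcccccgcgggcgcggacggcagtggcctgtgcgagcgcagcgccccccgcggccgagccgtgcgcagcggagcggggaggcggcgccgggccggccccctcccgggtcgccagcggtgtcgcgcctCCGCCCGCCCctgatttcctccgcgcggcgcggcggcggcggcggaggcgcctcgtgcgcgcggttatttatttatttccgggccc
Phex, chrX:157415287-157415536, minus strand: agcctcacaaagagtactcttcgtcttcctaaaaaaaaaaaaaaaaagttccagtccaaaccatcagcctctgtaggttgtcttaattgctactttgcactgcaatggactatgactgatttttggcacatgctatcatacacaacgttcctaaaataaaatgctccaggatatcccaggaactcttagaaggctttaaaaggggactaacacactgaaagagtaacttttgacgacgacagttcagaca

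The Ank start and the Alpl start printed lay in GC-rich sequence, and the Phex start did not. Counted over 300 bases, from 250 before the start to 50 after it, the GC share was 70.0% for Alpl, 61.7% for Enpp1, 78.0% for Ank and 38.7% for Phex, against a median of 52.7% over 32851 RefSeq promoters. CG dinucleotides numbered 26, 22, 53 and 4 in the same order, against a median of 7. Alpl has a further RefSeq start, not printed, whose promoter (chr4:137766426-137766725) had a GC share of 54.3%, 4 CG dinucleotides and no match to either motif. The Alpl promoter printed held overlapping GGGCGG matches that began 15 and 10 bases upstream and another that began at the start base, past the letters printed. Ank held overlapping matches that began 86 and 82 bases upstream, Enpp1 held 1 at 65 bases, and the Phex promoter held neither motif. TGTGGT was found for Enpp1, 144 bases upstream, and for Slc20a1, 77 bases upstream. GGGCGG occurred in 35.7% of all promoters of this length and TGTGGT in 16.8%, so a match describes the letters and shows no binding.

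The deposited matrices held 1286 barcodes and 10567335 UMIs (unique molecular identifiers, one per captured transcript) in the vehicle library and 2142 barcodes and 26270041 UMIs in the teriparatide library. After filters on genes and mitochondrial share, 549 and 1217 cells were kept, of which 424 and 604 were mesenchymal. The mesenchymal cells of the teriparatide library were deeper, with a median of 21328.5 UMIs against 12236, and 90.0% of those with a sex call were male, against 52.6% in the vehicle library. Only 1 kept barcode was shared by the libraries. Hematopoietic cells, which the sort should have removed, numbered 124 and 610, and neutrophil RNA was more widespread in the teriparatide library: S100a8 stood at 2.22 and 75.3 CPM (transcript counts scaled to 1000000 UMIs of the class) in osteoblast-like cells and at 5.99 and 264 CPM in erythroid-like cells. The part of sex, depth and this free RNA in the differences between libraries was not tested beyond the values given beside each result.

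Cells were clustered without the 9 genes, and clusters were named from listed markers. Osteoblast-like (OB-like) cells, 95 under vehicle and 92 under teriparatide, carried Sp7, Col1a1 and Bglap2. Dmp1, also listed for osteoblasts, did not pass as a marker of their cluster. Osteocyte-like (Ocy-like) cells, 18 and 38, were led by Mepe at 3617 and 8823 CPM, while Sost, the defining transcript of mature osteocytes, was at 0 in the vehicle library and 214 CPM in the teriparatide library. Pre-osteoblast-like (preOB-like) cells, 59 and 53, carried Runx2, Postn and Aspn, together with the mural genes Rgs5 at 538 and 1446 CPM and Acta2 at 662 and 110.3 CPM. Chondrocyte-like osteoprogenitors (COP-like), 66 and 266 cells, expressed Sox9 and Col2a1, and marrow adipogenic lineage precursors (MALP-like), 125 and 80 cells, expressed Lepr, Cxcl12 and Adipoq. Hypertrophic-like chondrocytes, 6 and 19 cells, were too few to compare between libraries, and their levels are given as a description.

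**Figure D1:**
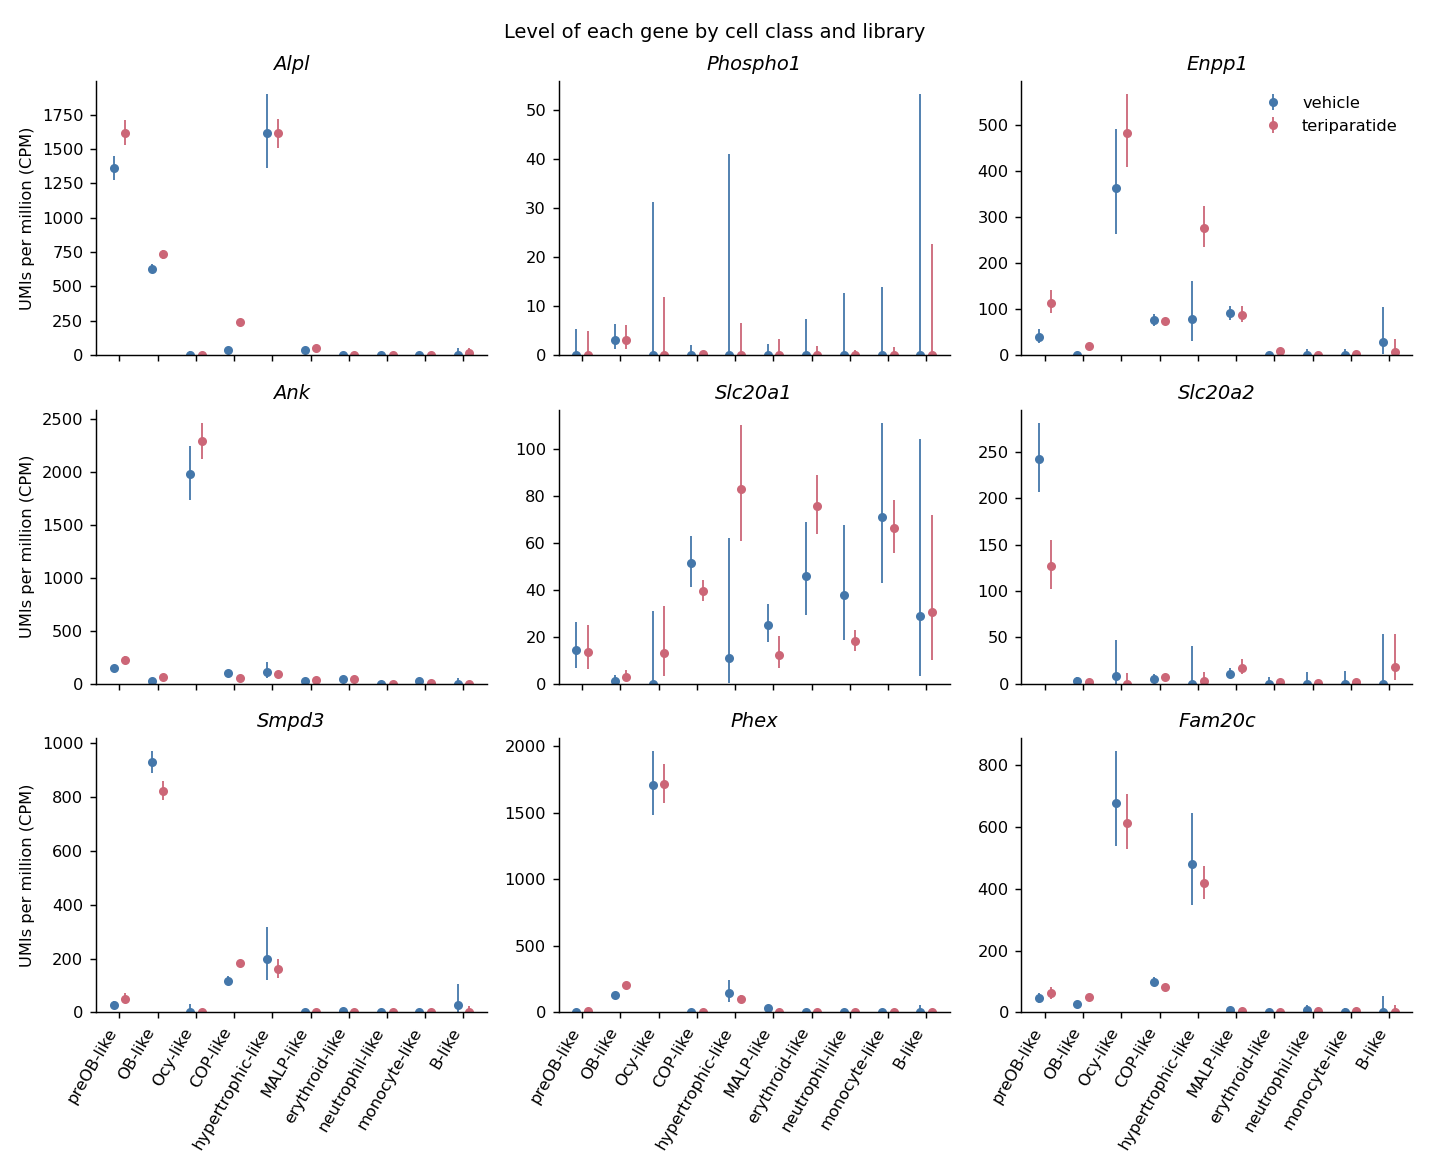
Level of each of the 9 genes in 10 cell classes, in CPM of the UMIs summed over a class, for the vehicle and the teriparatide library; bars are exact Poisson 95% intervals. Alpl and Smpd3 are at 0 in Ocy-like cells of both libraries, where Ank, Phex, Fam20c and Enpp1 have their highest levels.

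The phosphatase Alpl was high along the osteoblast path and not detected in Ocy-like cells. It reached 1360.0 CPM (1275 to 1449) in preOB-like cells of the vehicle library and 1617 CPM (1527 to 1712) in those of the teriparatide library. The level in OB-like cells was 629 CPM (597 to 662) under vehicle and 733 CPM (700.3 to 767) under teriparatide. The hypertrophic-like chondrocytes had 1614 and 1613 CPM, and their counting interval overlapped that of preOB-like cells in both libraries, whereas OB-like cells stood apart from both. MALP-like cells had 37.3 and 50.7 CPM and erythroid-like cells, which should lack the gene, 1 and 10 UMIs in all.

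No Alpl transcript was counted in 18 and 38 Ocy-like cells, with 118070 and 308389 UMIs behind them. A count of 0 allows up to 25.4 and 9.73 CPM when 3 counts are set as the floor. Against that floor Alpl was at least 24.7-fold higher in OB-like than in Ocy-like cells of the vehicle library and at least 75.3-fold higher in the teriparatide library. Against preOB-like cells the bounds were at least 53.5-fold and at least 166-fold. In the share of cells with a UMI, 95.8% and 95.7% of OB-like cells had Alpl (median depths 18693 and 25405 UMIs), against 1.96% and 1.19% of erythroid-like cells (9189 and 10448.5 UMIs). With every cell thinned to 3000 UMIs the shares were 77.4% and 81.1% in OB-like and 0 and 0.725% in erythroid-like cells.

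Smpd3, the sphingomyelinase gene, followed Alpl in OB-like and Ocy-like cells and parted from it in preOB-like cells. Its level in OB-like cells was 929 CPM (889.9 to 969.9) under vehicle and 824 CPM (789 to 859.6) under teriparatide, and 90 of 95 and 86 of 92 of these cells held both Alpl and Smpd3. In Ocy-like cells Smpd3 was also at 0, which puts OB-like cells at least 36.6-fold and at least 84.7-fold higher against the floor of 3 counts. In preOB-like cells, where Alpl was at its highest among the larger classes, Smpd3 stood at 28.5 CPM (17.4 to 44.0) under vehicle and 51.7 CPM (36.6 to 71.0) under teriparatide, below COP-like cells at 118 and 183 CPM. Phospho1, the vesicle phosphatase, was close to the limit of detection: 15 of its 18 UMIs over all classes lay in OB-like cells, at 3.102 CPM (1.25 to 6.39) under vehicle and 3.09 CPM (1.33 to 6.08).

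The genes that supply pyrophosphate were highest where Alpl was not detected. Ank stood at 1973 CPM (1728 to 2244) under vehicle and 2286 CPM (2120.4 to 2461) in Ocy-like cells, far from the next class, preOB-like cells at 145 and 223 CPM. It was detected in 17 of 18 and 36 of 38 Ocy-like cells, 94.4% and 94.7%, against 25.5% and 33.9% of erythroid-like cells, and in thinned cells in 87.5% and 88.2% against 15.2% and 10.1%. Between single Ocy-like cells Ank ran from 0 to 7172 CPM in the vehicle library with a median of 1508 CPM, and from 0 to 7037 CPM in the teriparatide library with a median of 1375 CPM. Erythroid-like cells held 44.0 and 42.1 CPM, as much as the lower mesenchymal classes, so low Ank levels are not specific to bone cells here.

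Enpp1 followed the same order at its top, with 364 CPM (264 to 491) under vehicle and 483 CPM (409 to 567) in Ocy-like cells. MALP-like cells came next in the vehicle library at 91.0 CPM (77.0 to 107), where their interval overlapped hypertrophic-like cells at 77.9 CPM. In COP-like cells the vehicle level of 75.6 CPM (63.5 to 89.4) met a teriparatide level of 75.4 CPM (69.5 to 81.6). OB-like cells were the low point among mesenchymal classes of the vehicle library, with 2 UMIs over 95 cells. Few OB-like cells held Enpp1 at all. Enpp1 was found with Alpl in 2 vehicle and 8 teriparatide cells, and without Alpl in 0 and 1. Alpl was missing from only 4 of 95 and 4 of 92 OB-like cells, so this overlap describes the spread of Alpl. The cell without Alpl held 44 of the 53 Enpp1 UMIs of the teriparatide library.

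The phosphate importers Slc20a1 and Slc20a2 had little in common. Slc20a2 was nearly restricted to preOB-like cells by level, at 242 CPM (207 to 281) under vehicle and 127 CPM (102 to 155), with at most 18.5 CPM in any other class of either library. It was seen in 71.2% and 60.4% of preOB-like cells, and in 36.8% and 25.5% after thinning, against 0 and 2.38% of erythroid-like cells, where thinning left none. Slc20a1 was broad and low, and its highest levels lay outside the OB-like, Ocy-like and preOB-like cells: hypertrophic-like cells had 11.1 and 82.9 CPM (from 1 and 47 UMIs), monocyte-like cells 71.2 and 66.4 CPM, erythroid-like cells 46.0 and 75.7 CPM and COP-like cells 51.4 and 39.6 CPM. OB-like cells held 1.33 and 3.09 CPM of Slc20a1, from 3 and 8 UMIs.

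Phex and Fam20c shared their high point with Ank and differed below it. Phex, mutated in X-linked hypophosphatemia, stood at 1711 CPM (1483 to 1964) under vehicle and 1715 CPM (1572 to 1868) in Ocy-like cells, followed among the named classes by OB-like cells at 133 and 204 CPM and hypertrophic-like cells at 145 and 102 CPM, and it was near 0 in COP-like cells. Ank and Phex were found together in 16 of 18 and 28 of 38 Ocy-like cells, where Ank was missing from 1 and 2 cells and Phex from 1 and 9. The kinase gene Fam20c had 678 CPM (537 to 843) under vehicle and 613 CPM (529 to 707) in Ocy-like cells and 479 CPM (346 to 645) under vehicle and 416 CPM (365 to 473) in hypertrophic-like cells. The counting intervals of these classes overlapped in the vehicle library and stood apart in the teriparatide library.

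**Figure D2:**
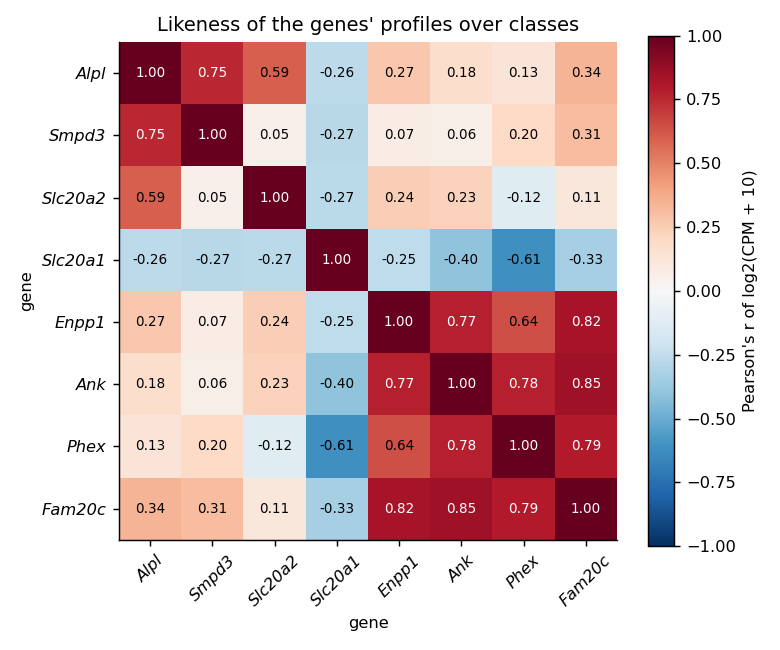
Pearson correlation of log2(CPM + 10) between genes over 19 profiles, each 1 class in 1 library, with Phospho1 left out because it had 18 UMIs. Ank, Phex, Enpp1 and Fam20c correlate with each other at 0.64 to 0.85, and Slc20a1 correlates negatively with the others.

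Over the 19 profiles of a class in a library the genes fell into the same sets, as a description only, since profiles share libraries and depth. Pearson's r of log2(CPM + 10) was 0.85 for Ank with Fam20c, 0.82 for Enpp1 with Fam20c, 0.79 for Phex with Fam20c and 0.78 for Ank with Phex. Alpl went with Smpd3 at 0.75 and with Slc20a2 at 0.59, but with Ank only at 0.18. Slc20a1 was negative with all of the others plotted, down to -0.61 with Phex. Of 12283 genes, those closest to Phex were Fam189a2 and Fabp3 at 0.94 and Dmp1, a matrix phosphoprotein of osteocytes, at 0.93. The closest to Fam20c were Cspg4 at 0.96 and Kank1 and Bmp2 at 0.94. Alpl was closest to Garnl3 at 0.92 and to B9d1 and Lum at 0.89, Ank to Als2cl at 0.93 and to Tmie and Cnnm2 at 0.91, and Enpp1 to Rhod, Ctgf and Spsb1 at 0.92. Slc20a2 was closest to A430027H14Rik at 0.95 and to Myh11, a smooth muscle myosin, and Apol6 at 0.94, Smpd3 to Kcnh2, Pycr1 and Plxna4 at 0.90, and Slc20a1 to Haus8 at 0.80, Senp2 at 0.79 and Ormdl2 at 0.78. The list of Phospho1, with Drd4 and Hapln4 at 1.00 and Bcan at 0.99, rested on 18 UMIs and carries no pattern. With a smaller pseudocount of 1 CPM, 8 of 9 such lists changed in at least 1 gene.

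The question the libraries address is how cells of the Gli1 lineage differ after teriparatide. A gene entered a comparison where its class held at least 50 of its UMIs over both libraries, and was called higher or lower where the ratio of teriparatide to vehicle passed 1.5-fold with an interval that excluded equality. Ratios are on the log2 scale. Of all 6278 genes tested in OB-like cells, 5.48% were called higher and 11.7% lower, and the median ratio was -0.15.

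**Figure D3:**
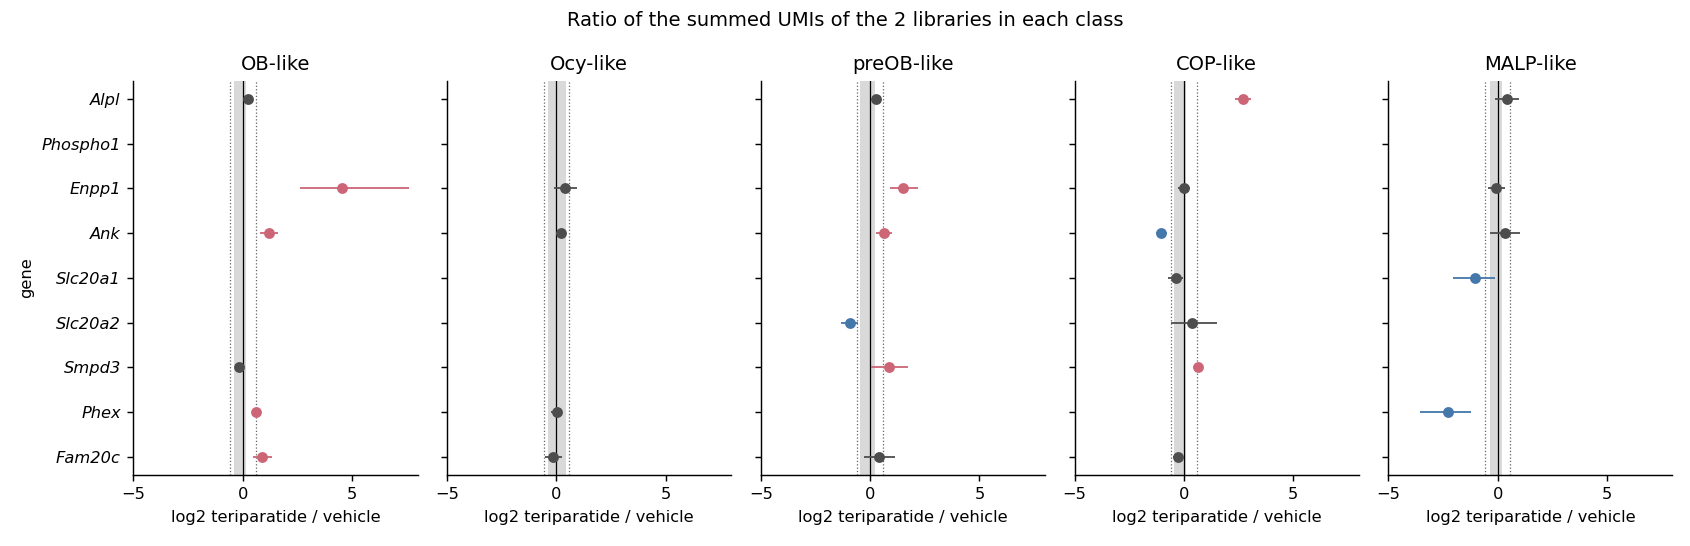
Log2 ratio of the teriparatide to the vehicle library for each gene tested in 5 classes, with exact 95% counting intervals; the grey band spans the quartiles of all genes tested in the class, dotted lines mark 1.5-fold, and red and blue points are called higher and lower. Enpp1 in OB-like cells and Alpl in COP-like cells lie farthest above the band, and Phex in MALP-like cells farthest below it.

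In OB-like cells 4 of the 6 genes tested were called higher and none lower, with a median of 0.76. The phosphatase side stayed within the fold: Alpl had a ratio of 0.22 (0.12 to 0.32) and Smpd3 -0.17 (-0.26 to -0.09). Phex went from 133 to 204 CPM, a ratio of 0.61 (0.41 to 0.82). Fam20c went from 27.5 CPM (21.1 to 35.2) to 51.3 CPM (43.0 to 60.8), a ratio of 0.90 (0.46 to 1.36). Ank went from 30.1 CPM (23.4 to 38.2) to 68.3 CPM (58.6 to 79.1), a ratio of 1.18 (0.77 to 1.61).

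Enpp1 had the highest ratio in OB-like cells, 4.53 (2.60 to 7.61), from 2 UMIs to 53, and 1 cell carried most of it. That cell of the teriparatide library held 44 of the 53 UMIs (83.0%), along with 77 of the 177 Ank UMIs, 399 UMIs of the osteocyte gene Dmp1 and none of Alpl. Without it Enpp1 had 9 UMIs in the teriparatide library, too few to test, and the Ank ratio was 0.37, under the fold, so that 2 of the remaining genes, Phex and Fam20c, were called.

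Those calls stood beside a shift in sex. Of OB-like cells with a sex call, 33.3% were male in the vehicle library and 95.2% in the teriparatide library, which held 4 female cells. Among male cells alone, Phex had 179 CPM in the vehicle library and 197 CPM in the teriparatide library, a ratio of 0.14 (-0.16 to 0.44), and Fam20c a ratio of 0.55 (-0.09 to 1.25), and neither was called. Within the vehicle library, female OB-like cells had less Phex than male cells, 123 against 179 CPM, with a log2 ratio of female to male of -0.54 (-0.88 to -0.19). A single vehicle cell held 82 of the 301 Phex UMIs of the class, and its sex call is not given. The Phex values within sexes were not computed without it, so they may rest on that cell. Ank among male cells kept a ratio of 1.36 (0.66 to 2.16), with the teriparatide cell that held most of the Enpp1 UMIs included.

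**Figure D4:**
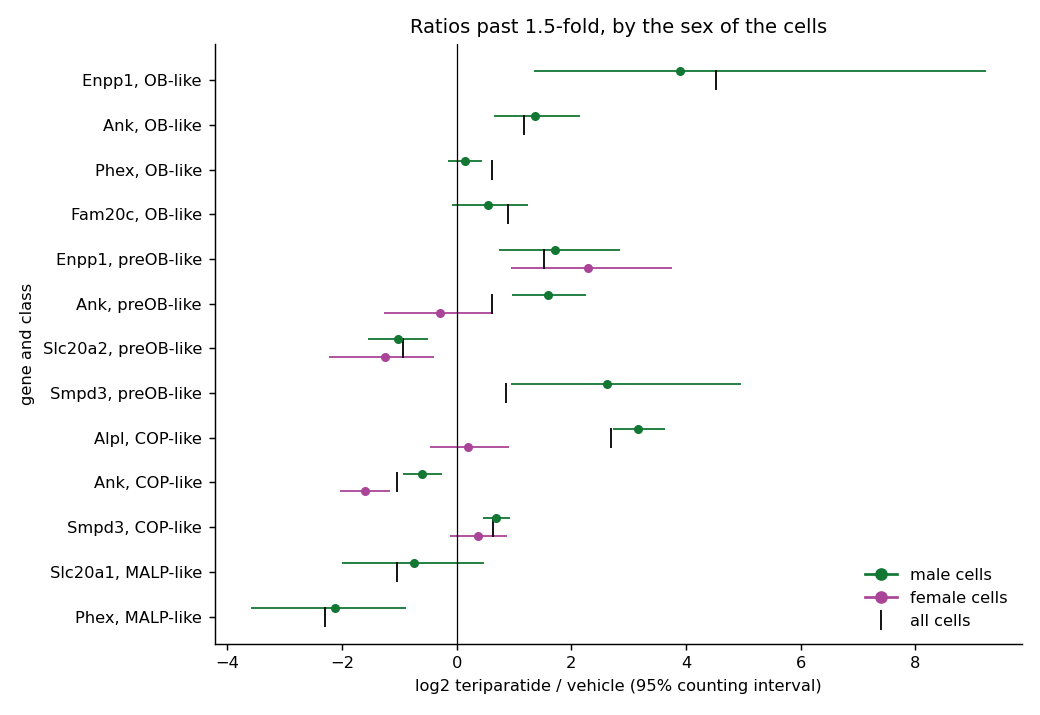
Log2 ratio of teriparatide to vehicle within male and within female cells, drawn where a sex has at least 5 cells and a UMI of the gene in each library; bars are exact 95% counting intervals and black ticks mark the ratio over all cells. Alpl in COP-like cells is at 3.16 in male and 0.20 in female cells, and Slc20a2 in preOB-like cells is below 0 in both.

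In Ocy-like cells none of the 4 genes tested was called, at a background of 12.2% higher and 9.15% lower of 994 genes, and their median was 0.11 against 0.03 for all genes. Phex was level, with a ratio of 0.00 (-0.23 to 0.24), and Fam20c stood at -0.14 (-0.53 to 0.25). Ank had 0.21 (0.00 to 0.43) and Enpp1 0.41 (-0.09 to 0.93). These intervals do not cover UMIs gathered in single cells. One vehicle cell held 95 of the 202 Phex UMIs, and another held 67 of the 233 Ank UMIs. In the teriparatide library the top cells held 89 of 529 Phex and 65 of 705 Ank UMIs. Within sexes Ank, Phex and Fam20c moved in opposite directions, from few cells. Ank was at 1.16 among 9 and 21 male cells and at -0.65 among 4 and 5 female cells. In the same order Phex was at -0.53 and 1.20 and Fam20c at -0.59 and 2.61, while Enpp1 was at 0.37 and 0.25. The vehicle cell with 67 Ank UMIs was female, and female vehicle cells held 102 in all. The vehicle cell with 95 Phex UMIs was male, and male vehicle cells held 123 in all. The ratios within sexes without these cells were not computed. The matrix gene Mepe was called higher in Ocy-like cells, at 1.29 (1.14 to 1.44). Its UMIs also gathered in single cells, with 253 in 1 vehicle cell and 365 in 1 teriparatide cell. The ratio without these cells is not given.

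In preOB-like cells 3 of 6 genes tested were called higher and 1 lower, at a background of 6.91% and 15.9% of 4386 genes, with a median of 0.52 against -0.15 for all genes. The gene called lower was the importer Slc20a2, which went from 242 to 127 CPM, a ratio of -0.94 (-1.32 to -0.56). It was lower within both sexes, at -1.03 (-1.55 to -0.50) among male and -1.25 (-2.22 to -0.40) among female cells, although only 6 female cells were left in the teriparatide library. Single cells ran from 0 to 1212 CPM in the vehicle library with a median of 169 CPM, and from 0 to 2222 CPM in the teriparatide library with a median of 99.1 CPM, so the ranges overlapped. Other genes of the class differed too: the mural gene Acta2 fell by 2.59 and Adipoq by 2.89 on the log2 scale, while Rgs5 stood at 1.43, and their part in the Slc20a2 value was not tested.

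Among the genes called higher in preOB-like cells, Enpp1 went from 39.9 CPM (26.5 to 57.6) to 114 CPM (91.2 to 142), a ratio of 1.52 (0.89 to 2.19). It was at 1.72 among male and 2.30 among female cells, the latter from 8 and 14 UMIs. In cells thinned to 3000 UMIs it was at -0.32 and not called, but few cells then held Enpp1. Among 57 vehicle and 51 teriparatide thinned cells, it was found with Alpl in 3 and 1, and without Alpl in 3 and 1. The sign of the thinned ratio is therefore not read. Ank went from 145 to 223 CPM, a ratio of 0.62 (0.25 to 0.99), with 50.6% of the teriparatide UMIs in 1 cell. Without the top cell of each library Ank was at 0.30 and not called. With the top cells included, Ank was at 1.58 (0.97 to 2.25) among male and -0.29 (-1.26 to 0.59) among female cells. The top teriparatide cell was male and held 83 of the 140 Ank UMIs of male cells there. The top vehicle cell was female and held 39 of the 48 Ank UMIs of female cells there. The ratios within sexes without these cells were not computed. Smpd3 had 0.86 (0.04 to 1.72), from 20 and 38 UMIs, with 10 of the 20 and 15 of the 38 in 1 cell each. Without those cells, among male cells alone, and in cells thinned to 3000 UMIs it kept its sign and was not called. Alpl in the same cells had a ratio of 0.25 (0.13 to 0.37), within the fold. Within sexes Alpl had opposite signs, at 0.28 (0.11 to 0.46) among 26 and 36 male cells and -0.47 (-0.77 to -0.17) among 22 and 6 female cells.

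In COP-like cells Alpl was higher in the teriparatide library than in the vehicle library. It went from 37.0 CPM (28.7 to 47.0) to 240.1 CPM (229.5 to 251), a ratio of 2.70 (2.35 to 3.07), and 30.3% and 45.5% of cells had a UMI (median depths 28718.5 and 30923 UMIs), 13.8% and 18.7% after thinning. The class median per cell was 0 CPM in both libraries and the highest cell was at 1133 CPM under vehicle and 5165 CPM under teriparatide, so the difference lay in a minority of cells. Cells with at least 10 UMIs of Col10a1 or Ibsp, genes of hypertrophic cartilage and of early mineral, numbered 4 of 66 and 25 of 266, and they held 14 of 67 and 1283 of 1930 Alpl UMIs. Without them Alpl still differed, from 30.9 to 89.4 CPM, a ratio of 1.53 (1.13 to 1.97).

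**Figure D5:**
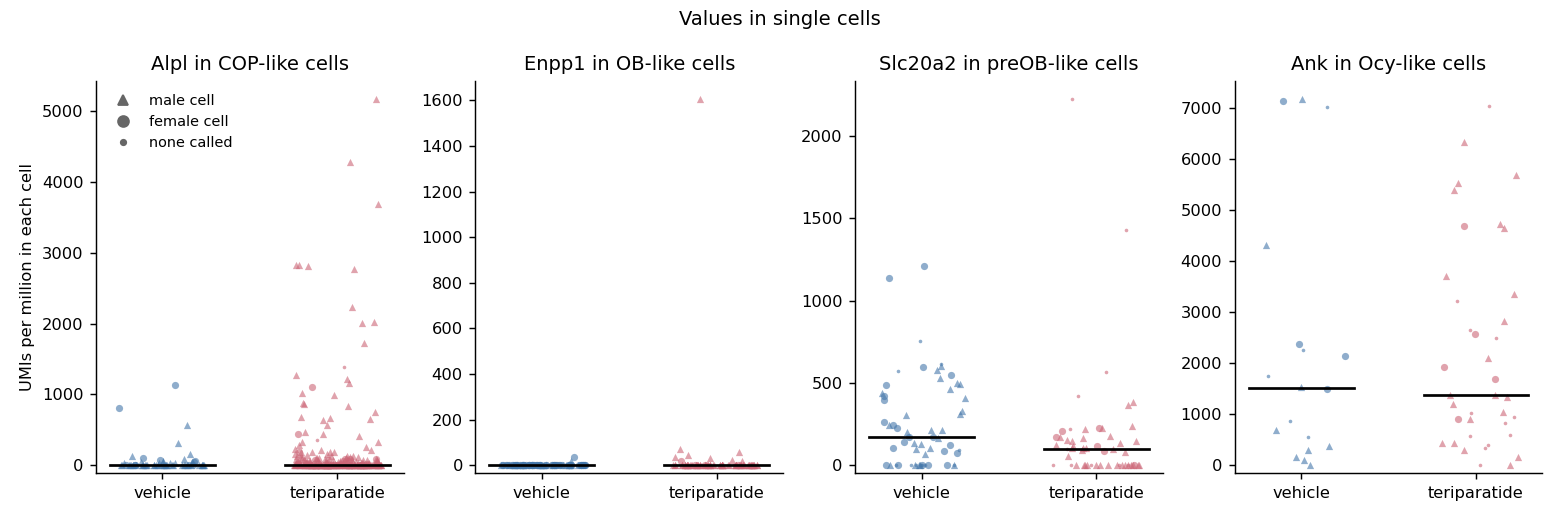
CPM in single cells for Alpl in COP-like, Enpp1 in OB-like, Slc20a2 in preOB-like and Ank in Ocy-like cells, by library, with symbols for the sex call and a bar at the median. Most COP-like cells sit at 0 Alpl in both libraries, and 1 OB-like cell of the teriparatide library stands far above the rest in Enpp1.

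The Alpl difference in COP-like cells was found among male cells, while the few female cells gave a ratio whose interval included equality. Male cells went from 29.0 to 259 CPM, a ratio of 3.16 (2.73 to 3.63), from 52 and 230 cells. Female cells went from 88.9 to 102 CPM, a ratio of 0.20 (-0.47 to 0.92), from 11 and 25 cells. The female values rested on 24 and 87 UMIs. Single vehicle cells held 10 and 7 of the 24, and 1 teriparatide cell held 42 of the 87. The difference between the sexes was not tested. In all 4 sub-clusters of the class Alpl was higher in the teriparatide library, from 24.7 to 420.0 CPM where it differed most and from 33.5 to 61.9 CPM in the sub-cluster led by Meg3 and Cytl1. In the smallest sub-cluster, of 4 and 11 cells, the levels of 195 CPM (116 to 309) and 312 CPM (257 to 375) had overlapping intervals.

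Of the 7 genes tested in COP-like cells, Alpl and Smpd3 were called higher and Ank lower, at a background of 5.87% and 14.5% of 9246 genes. Their median was -0.00 against -0.20 for all genes. Ank went from 104 CPM (89.5 to 119.8) to 50.5 CPM (45.7 to 55.7), a ratio of -1.04 (-1.29 to -0.78), and was lower within male cells at -0.60 and within female cells at -1.60. One vehicle cell held 37.8% of the Ank UMIs there, 71 of 188, and it was a female cell. All female cells together had 91 Ank UMIs in the vehicle library, and their ratio without that cell was not computed. Over all cells, without the top cell of each library, the ratio was -0.51 and not called. Smpd3 went from 118 to 183 CPM, a ratio of 0.63 (0.43 to 0.85), and was at 0.23 without the cells rich in Col10a1 or Ibsp. Enpp1 was level over all cells, at -0.00 (-0.27 to 0.27), and Fam20c stood at -0.27 (-0.51 to -0.03). Within sexes Enpp1 was at 0.20 (-0.11 to 0.52) among male cells. Among the 11 and 25 female cells it was at -1.40 (-2.08 to -0.71), from 35 and 42 UMIs. Of the 35, 16 lay in the female vehicle cell that held 71 Ank UMIs. Phex had no UMI in the vehicle library and 42 in the teriparatide library, 5.23 CPM, under the 50 UMIs needed for a call. Against the floor of 3 counts that was at least 3.15-fold higher, and the exact lower limit of the log2 ratio was 1.30. The 42 UMIs lay in 12 of 266 cells, with 17 of them in 1 cell.

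In MALP-like cells 2 of 5 genes tested were called, both lower, at a background of 6.93% higher and 8.03% lower of 6871 genes, and their median was -0.06 against -0.08. Phex went from 34.2 CPM (25.8 to 44.4) to 6.997 CPM (3.02 to 13.8), a ratio of -2.29 (-3.57 to -1.21), and Slc20a1 from 25.1 to 12.2 CPM, a ratio of -1.03 (-2.02 to -0.13). Both rested on few UMIs, 56 and 8 for Phex and 41 and 14 for Slc20a1, and among male cells they were at -2.13 and -0.74 with under 50 UMIs. The osteoblast genes Bglap and Bglap2 fell by 2.75 and 4.04 in the same cells, on the log2 scale, and their part in the Phex value was not tested. Enpp1 was level at -0.06 (-0.44 to 0.32), and Alpl stood at 0.44 (-0.10 to 0.99). Among male cells alone Alpl went from 25.2 to 59.5 CPM, a ratio of 1.24 (0.46 to 2.08), from 19 and 55 UMIs. Of MALP-like cells with a sex call, 43.6% were male in the vehicle library and 89.9% in the teriparatide library.

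A list of 47 further genes of phosphate, pyrophosphate, matrix protein and sphingomyelin metabolism gave the setting. Of those tested, 7 of 31 were called higher and 3 lower in OB-like cells, 4 of 16 and 1 in Ocy-like cells, 7 of 22 and 2 in preOB-like cells, 9 of 30 and 5 in COP-like cells, and 2 of 28 and 4 in MALP-like cells. Over all genes tested the shares called higher and lower were 5.48% and 11.7% in OB-like, 12.2% and 9.15% in Ocy-like, 6.91% and 15.9% in preOB-like, 5.87% and 14.5% in COP-like, and 6.93% and 8.03% in MALP-like cells, so the higher calls in MALP-like cells and the lower calls in OB-like, Ocy-like, preOB-like and COP-like cells lay near or below the shares of all genes. The matrix proteins of mineral made up most of the higher calls, with 4 of 8 in OB-like, 5 of 8 in preOB-like and 6 of 7 in COP-like cells and none lower in these classes. In OB-like cells Spp1, an acidic phosphoprotein, had a ratio of 3.76, Mgp, an inhibitor of calcification, 3.25, Dmp1 2.18 and Ibsp 1.33. The Dmp1 value includes the teriparatide cell that held most of the Enpp1 UMIs, which had 399 Dmp1 UMIs. Spp1 and Mgp were also higher in the erythroid-like cells of the teriparatide library, which should not make them, at 18.0 and 351 CPM for Spp1 and 1.998 and 179 CPM for Mgp.

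In Ocy-like cells the genes of the list with the largest ratios were the osteocalcin genes Bglap at 2.97 and Bglap2 at 1.80, then Mepe at 1.29 and the vitamin D receptor gene Vdr at 0.89. In preOB-like cells they were Dmp1 at 2.56, Ibsp at 1.61, the collagen gene Col1a1 at 1.06 and Vdr at 1.04. Single preOB-like cells held 130 and 48 Dmp1 UMIs in the teriparatide library, and 1 held 30 in the vehicle library. COP-like cells had Ibsp at 4.12, Col1a1 at 1.77 and Sgms2, a sphingomyelin synthase gene, at 1.77, and Galnt3, whose product glycosylates FGF23, was lower at -1.58. In MALP-like cells Vdr was lower at -1.997 and the cytosolic pyrophosphatase gene Ppa1 at -1.50, beside the osteocalcin genes given above. The enzymes of pyrophosphate and nucleotides as a list had 1 of 5 called higher and 1 lower in OB-like cells, none of 5 called in COP-like cells, and none higher and 1 lower of 1 tested in Ocy-like, 3 in preOB-like and 5 in MALP-like cells.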

How the data were processed

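Single-cell 3′ libraries (10x Genomics v2 chemistry) of 1 vehicle and 1 teriparatide sample were analysed. The deposited values are UMI counts per gene and barcode on mm10, made by the authors with Cell Ranger, version 2.1.0 in the submitters' processing notes and 3.1.0 in the matrix headers. Cells with 200 to 6000 genes and at most 10% mitochondrial UMIs were kept. The libraries were integrated and clustered in Seurat 5.3.0 (R 4.3.3; 2000 variable genes without the genes described, 20 components, resolution 0.6), mesenchymal cells being clustered again. A cluster was named from at least 3 listed markers, unless more markers of another type were among its 10 leading genes. Scrublet in scanpy 1.11.5 marked 4 and 2 cells as doublets (0.729% and 0.164%), and they were kept. Because cells are not replicates, UMIs were summed per class and library (Python 3.11.15, pandas 2.3.3, numpy 2.4.6) and given as CPM with exact Poisson intervals. Ratios have exact conditional binomial intervals and shares Clopper-Pearson intervals (scipy 1.17.1), at 95%. The ratio step was tested on simulated counts with counting error alone, which does not cover UMIs gathered in single cells. Sex was called per cell from Ddx3y, Eif2s3y, Uty and Kdm5d against Xist. Levels are not compared between genes, since 3′ capture differs between them. The genes, the 47 further genes and the markers were chosen with earlier results of these data known. All 9 genes are named, with at most 4 called genes of the 47 per class by size of ratio and the 3 genes most like each of the 9; Adipoq, Acta2, Rgs5, S100a8 and the cell types' markers were named beyond that rule to describe the classes. Alternatives changed the mitochondrial limit, gating, resolution, depth, scaling, fold, minimum count, sex, doublets and the most extreme cell.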

Additional observations from a re-analysis of the deposited data

How the results depend on the processing

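Each count of genes past the fold was recomputed under the alternatives, changing 1 choice at a time, and 92 of 122 counts stayed within 1.5 times of the value reported. The share of all genes called was not recorded under the alternatives, and it can change with them. The counts below therefore show only how the calls depend on each choice. Among the 9 genes the reported counts were 4 in OB-like, 0 in Ocy-like, 4 in preOB-like, 3 in COP-like and 2 in MALP-like cells. OB-like cells gave 2 when cells were gated 1 by 1, among male cells alone, at 2-fold, with at least 200 UMIs, without the cell with most UMIs of the gene in each library, and without the cell with most Enpp1, and 0 in cells thinned to 3000 UMIs. PreOB-like cells gave 2 by gating, with 200 UMIs and without the top cells, and 1 at 2-fold and when thinned. MALP-like cells gave 4 by gating, 1 among male cells, and 0 when thinned or with 200 UMIs. The gene called among male MALP-like cells was Alpl, higher, and neither Phex nor Slc20a1 was called there. Ocy-like cells gave 2 at a mitochondrial limit of 20%. Among the 47 further genes, with 10, 5, 9, 14 and 6 reported in the same order, thinning gave 3 in OB-like, 3 in Ocy-like, 5 in preOB-like and 6 in COP-like cells, 2-fold gave 3 in Ocy-like, 4 in preOB-like and 7 in COP-like cells, 200 UMIs gave 6 in OB-like, 3 in Ocy-like and 2 in MALP-like cells, and Ocy-like cells gave 8 at the 20% limit and by the mean over cells. COP-like cells gave 9 without those rich in Col10a1 or Ibsp. That alternative and the one without the top Enpp1 cell were chosen after seeing the data. Thinning leaves fewer UMIs to test and also sets cells to the same depth. The cause of the changes, under thinning or any other alternative, was not tested. The Enpp1 ratio in preOB-like cells was at -0.32 when thinned, where few cells held a UMI of it. Of 263 ratios, 211 moved by less than their interval. The Alpl call in COP-like cells held under 13 of 14 alternatives, all but female cells alone, and that of Slc20a2 in preOB-like cells under 10 of 12. The gate kept 26.8% of preOB-like and 48.2% of Ocy-like cells. Ocy-like cells by gate or by sex, and female cells of the OB-like, MALP-like and preOB-like classes, were under 10 in a library, so that no counts were made. No paired analysis was possible because each condition had 1 library.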

Other observations

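A cluster of 55 and 56 mesenchymal cells carried the 5 listed MALP markers but stayed unnamed, since 2 neutrophil markers and only 1 of the MALP markers were among its 10 leading genes. Its cells were shallow, with medians of 3188 and 1239.5 UMIs, and the markers among its leading genes were S100a9, S100a8 and Adipoq. Phex stood at 16.0 CPM in the vehicle library and 328 CPM in the teriparatide library, from 3 and 46 UMIs. Its log2 ratio was 4.36 (2.72 to 6.69), and the share of these UMIs in single cells was not computed. Fam20c stood at 58.6 and 249 CPM, Enpp1 at 37.3 and 128 CPM and Ank at 32.0 and 99.7 CPM, while Alpl stood at 277 and 214 CPM. Phex, Fam20c, Enpp1 and Ank each had under 50 UMIs there.

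The number of the 9 genes seen in a cell differed by class. OB-like cells held a median of 3 under vehicle and 4 under teriparatide, and Ocy-like cells the same numbers, at median depths of 6072 and 6680 UMIs against 18693 and 25405. After thinning to 3000 UMIs, Ocy-like cells held a median of 3 in both libraries, OB-like cells 2 and COP-like cells 1. Hypertrophic-like cells, 6 and 19 in number, held Enpp1 at 77.9 CPM (31.3 to 161) and 277 CPM (235 to 324), with 74 of the 157 teriparatide UMIs in 1 cell, and Slc20a1 at 11.1 and 82.9 CPM, from 1 and 47 UMIs.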
